A study of Mus musculus with 64 samples.

Results

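Megakaryocyte-erythroid progenitors (MEP) were set against stem and myeloid progenitors (SMP) in the bone marrow of healthy wild-type (WT) mice, gene by gene. The 6 libraries, of 64 in the whole series, were chosen by their labels alone: bone marrow, MEP or SMP, disease state none and an age of 23 to 28 days. They come from 3 mice aged 28, 23 and 25 days (mouse 1, 2 and 3), and each gave 1 MEP and 1 SMP library, so that each mouse was its own control. The titles number mouse 1 and 2, whereas the libraries of mouse 3 share only a code of age and genotype and were taken as 1 animal. All 3 mice are of the strain CbyJ.Cby-Rasa3(scat)/Llp and carry the +/+ genotype, that is, without the scat allele of Rasa3. Marrow of diseased mice of that line is used in 1 comparison at the end: 3 scat/scat mice in anemic crisis, aged 23, 28 and 26 days, with 3 MEP and 3 SMP libraries. A further 2 healthy WT mice, aged 58 and 32 days, gave 2 MEP and 2 SMP libraries, which did not enter the main test. Whole marrow of young WT mice is set beside some markers. It came from mouse 1, mouse 2 and a mouse of 25 days with an identifier other than that of mouse 3. SMP were sorted as Kit+CD34+ cells that lacked lineage markers and Sca and carried little CD16/32, a gate often used in mouse marrow for common myeloid progenitors. The MEP gate is given in the labels by a citation only, without its markers. The 2 populations are sorted fractions taken at 1 time, so that their difference describes 2 states and was not followed over time in the same cells.

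Blood formation runs from multipotent cells through progenitors that lose options step by step. Red cell formation is driven by the transcription factors GATA1, KLF1 and TAL1 and by erythropoietin, which signals through its receptor, JAK2 and STAT5. Granulocyte and monocyte formation rests on PU.1, encoded by Spi1, on C/EBP-alpha, encoded by Cebpa, and on the receptors for the colony-stimulating factors. GATA1 and PU.1 are known to oppose each other, and GATA2, the GATA factor of stem cells and early progenitors, gives way to GATA1 as red cell formation starts.

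The normalised counts of the libraries summed to between 35.63 M and 51.23 M (M for mega), and as normalised values these sums do not measure depth. If the lowest value that recurs in a column is taken as the worth of 1 read, the totals correspond to 31.7 M to 38.7 M reads a library. From 2 to 8 low values recurred in a column, so the worth of 1 read, and with it the depth, is uncertain. Values above 0 were found for 17643 to 18359 genes in MEP and for 18509 to 19055 genes in SMP. Mitochondrial transcripts made up 3.63, 4.20 and 4.19% of the MEP libraries of mouse 1, 2 and 3, against 3.39, 3.25 and 3.04% of their SMP libraries. Lineage markers were checked against the labels. The 8 erythroid markers summed to 290100, 275300 and 232400 rescaled counts in MEP, against 30310, 47090 and 35250 in SMP, and the 7 markers of granulocyte and monocyte precursors to 7049, 3764 and 8063 in MEP, against 173100, 104400 and 134400 in SMP. The 6 megakaryocyte markers went against the first part of the MEP name, with sums of 2379, 1229 and 2786 in MEP, against 13180, 13140 and 14320 in SMP. The MEP library of mouse 3 stood nearest to SMP, at a root mean square log2 difference of 1.36 to 1.47 from the SMP libraries, against 1.61 to 1.91 for the MEP libraries of mouse 1 and 2. It also carried the highest sum of the 4 B cell markers, 10260 rescaled counts, against 1752 and 2542 in the MEP libraries of mouse 1 and 2 and 1388 to 1993 in SMP. The main test was also run with mouse 3 left out. That drops its MEP and its SMP library together, so the part of this MEP library alone was not measured.

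MEP and SMP differed at most genes. The columns were first brought to 1 scale by the median ratio over 15291 genes, and values below are these rescaled normalised counts. Of 14954 genes tested with limma, 10619 were called at an adjusted p (Benjamini-Hochberg) under 0.05, which is 71.0%. Of all genes tested, 5404 were higher in MEP (36.1%) and 5215 were lower (34.9%). Size separated the directions: 1800 genes were at least 2-fold higher (12%), and 3383 were at least 2-fold lower (22.6%). Past 4-fold the counts were 605 higher and 1997 lower, while past 16-fold they were 203 higher and 183 lower. The values of the 3 MEP libraries did not overlap those of the 3 SMP libraries at 11599 genes (77.6%). The median log2 fold change of all genes was -0.02, with a median standard error (SE) of 0.118, and the central 50% of genes lay between -1.0 and 0.62. The split by direction rests on the scale: with upper quartile rescaling 4250 genes were higher and 6425 lower, the median of all genes being -0.24, and with the deposited values taken as they stand 1189 were higher and 3579 lower, with a median of -0.27. In sorted bulk RNA, fewer cells of a kind and less RNA per cell cannot be told apart.

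**Figure D1:**
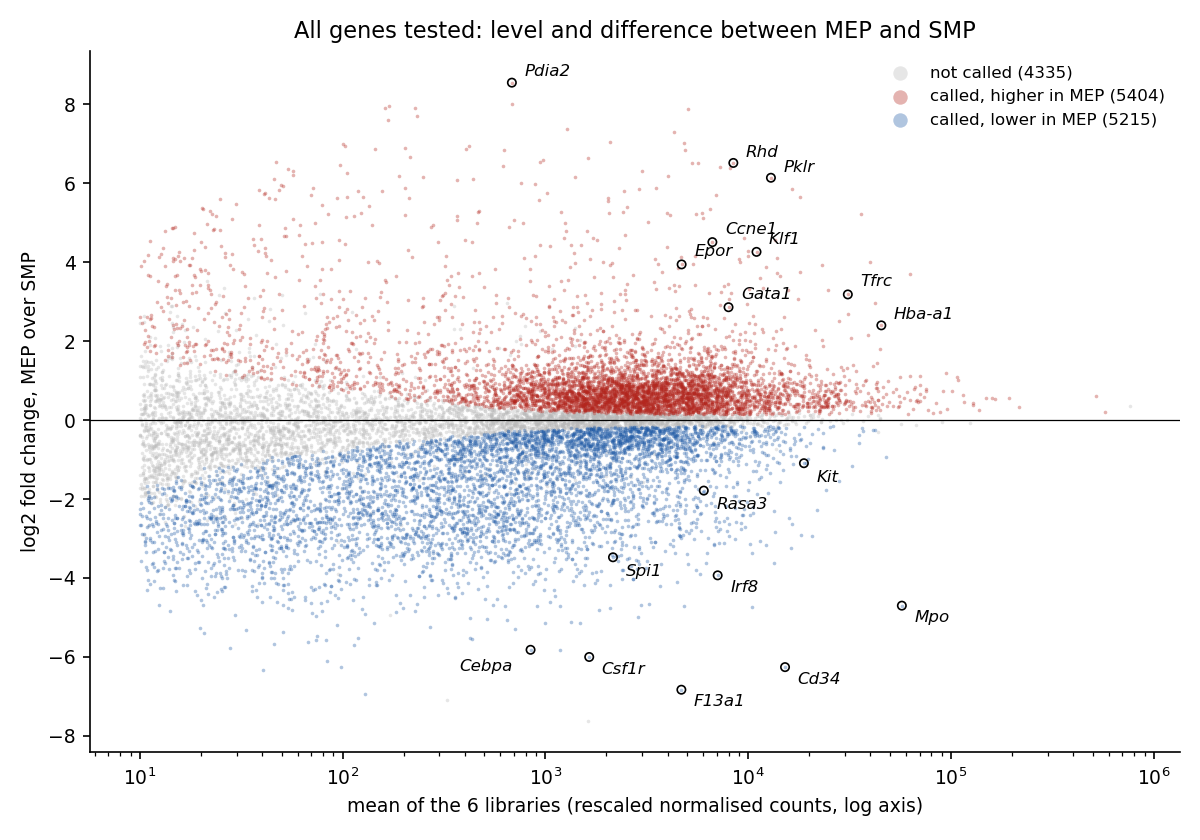
Each point is 1 of 14954 genes, placed by its mean over the 6 libraries (rescaled normalised counts, log axis) and its log2 fold change of MEP over SMP. Red points were called higher in MEP, blue points lower, grey points were not called, and 18 genes named in the text are ringed. The blue cloud reaches below -2 over a wide range of levels. Past 4-fold there are 1997 blue and 605 red points, and past 16-fold 183 blue and 203 red.

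The sort antigens came first as a check of the gates, and since the sort used them their difference is a description. Cd34, the surface sialomucin on which SMP were gated (chr1:194938819-194961279, GRCm38), had 705.9, 94.72 and 861.3 rescaled counts in MEP of mouse 1, 2 and 3, against 32220, 26920 and 30330 in SMP. Kit, the stem cell factor receptor, had 12410, 12410 and 11180 in MEP, against 27970, 23910 and 25040 in SMP. The transcripts of CD16/32 were lower in MEP as well: Fcgr2b, of the inhibitory Fc receptor, had 42.05, 30.07 and 102.1, against 839.6, 615.5 and 721.2 in SMP, and Fcgr3 had 14.27, 25.87 and 24.31, against 119.9, 98.33 and 86.38. Ly6a, which encodes Sca-1, was near the floor in both, with at most 6.60 in MEP and 57.46 in SMP. The MEP library of mouse 2 had the lowest Cd34 of all 6 libraries.

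The genes with the highest fold changes were mostly not the textbook erythroid genes. Pdia2, a protein disulfide isomerase (chr17:26195999-26199087), reached 1166, 1732 and 1190 rescaled counts in MEP, against 0, 6.38 and 5.15 in SMP (log2 8.55, SE 0.568, adjusted p = 8.1e-05). Slc30a10, a manganese transporter, reached 1300, 1594 and 1182 in MEP, against 2.33, 9.47 and 3.08 in SMP. Tmem56 had 10070, 11760 and 8217, against 44.61, 111.3 and 13.39, and Abcg4, a sterol transporter, had 9377, 8978 and 7179, against 36.7, 102.2 and 38.1. Aknad1, Tac2, which encodes a tachykinin, and Phyhip completed the protein-coding genes among the 10 highest, at log2 7.92, 7.70 and 7.37. The other 3 of the 10 were immunoglobulin variable segments, described with the B cell genes below. Among the 10 lowest, F13a1, the A chain of coagulation factor XIII and a marker of monocytes (chr13:36867178-37050244), had 66.31, 34.45 and 203.6 in MEP, against 11360, 6295 and 10130 in SMP (log2 -6.83, SE 0.492, adjusted p = 0.0018). It shared that end of the scale with Cd34, with Csf1r and Cebpa, with Hk3 and Cd14, and with Abca9, Scd3, Clec10a and Arfgef3, all between log2 -6.93 and -5.63. The library of mouse 3 was the highest of the MEP libraries at F13a1, Cd34, Csf1r, Cebpa and Hk3, and the MEP and SMP libraries did not overlap at any of them.

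The transcription factors of red cell formation were higher in MEP as a group. Of 20 tested, 15 were called higher and 4 lower, with a median log2 of 1.47. Klf1, which activates the globin and membrane genes (chr8:84901928-84905291), had 22540, 21830 and 18200 rescaled counts in MEP, against 951.4, 1532 and 864.3 in SMP (19.2-fold, log2 4.26, SE 0.162, adjusted p = 7.28e-05). Gata1, the master factor of the lineage (chrX:7959260-7978071), had 15300, 15520 and 11380 in MEP, against 1795, 2207 and 1777 in SMP (7.26-fold, log2 2.86, SE 0.087). In each mouse the fold was larger for Klf1 than for Gata1, and SMP were far from empty of both transcripts. Nfia, a factor that favours red cells over granulocytes, rose by log2 3.51 (SE 0.089), Gfi1b, a repressor that works with GATA1, by 2.93 (SE 0.084), and Sox6 by 2.64. Tal1 and Zfpm1, partners of GATA1, rose by log2 1.77 and 1.82, and the cell cycle factors E2f2 and E2f4 by 2.11 and 2.31. Not all members were higher: Nfe2 was lower by log2 -0.85, Cbfa2t3 by -0.77 and Myb by -0.67, and Lmo2, a bridge of the TAL1 complex, had 16750, 18410 and 14940 in MEP, against 16810, 14650 and 13760 in SMP, with overlapping groups.

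Promoters are shown for Epor and Pdia2, both higher in MEP, for Gata1 as a regulator and for F13a1 of the low end. They put the letters that these factors read beside the expression values. The sequences are RefSeq's, build GRCm38.p6, from 250 bases before to 50 after the start, read along the gene, and capitals mark the match. The letters of 3 short motifs were searched on both strands. The first is AGATAA, a site of GATA factors, which on the opposite strand reads TTATCT. The next is CCACACCC, which KLF1 is known to bind. The last is GAGGAA, the core of PU.1 sites.
Epor, chr9:21963527-21963826, minus strand: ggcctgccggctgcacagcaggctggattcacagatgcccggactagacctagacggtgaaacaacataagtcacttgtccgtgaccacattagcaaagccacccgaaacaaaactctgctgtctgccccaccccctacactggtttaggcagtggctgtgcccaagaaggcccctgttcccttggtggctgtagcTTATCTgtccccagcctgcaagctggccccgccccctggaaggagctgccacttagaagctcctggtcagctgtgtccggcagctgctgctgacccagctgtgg
Pdia2, chr17:26199038-26199337, minus strand: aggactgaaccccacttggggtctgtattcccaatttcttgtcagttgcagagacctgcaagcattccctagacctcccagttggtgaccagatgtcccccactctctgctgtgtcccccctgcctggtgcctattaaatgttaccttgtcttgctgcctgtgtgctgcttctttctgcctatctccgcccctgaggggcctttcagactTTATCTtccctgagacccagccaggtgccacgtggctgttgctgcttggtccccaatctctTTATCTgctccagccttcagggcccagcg
Gata1, chrX:7967861-7968160, minus strand: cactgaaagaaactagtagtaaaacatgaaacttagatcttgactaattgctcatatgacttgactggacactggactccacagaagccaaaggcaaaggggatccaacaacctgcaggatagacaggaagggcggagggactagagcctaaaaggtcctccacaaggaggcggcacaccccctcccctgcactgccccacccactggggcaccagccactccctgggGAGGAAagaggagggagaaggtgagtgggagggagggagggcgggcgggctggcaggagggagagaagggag
F13a1, chr13:37050195-37050494, minus strand: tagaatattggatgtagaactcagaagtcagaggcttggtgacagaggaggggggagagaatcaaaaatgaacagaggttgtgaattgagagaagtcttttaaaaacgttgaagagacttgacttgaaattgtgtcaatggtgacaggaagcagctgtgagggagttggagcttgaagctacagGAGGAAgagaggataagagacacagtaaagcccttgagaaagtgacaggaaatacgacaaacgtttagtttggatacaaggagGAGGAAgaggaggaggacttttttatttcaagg

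The Epor window holds 1 AGATAA match, which begins 54 bases before the start, and the Pdia2 window holds 2, which begin 40 bases before and at base 21 after it. The Gata1 window holds GAGGAA 22 bases before the start, and the F13a1 window shown, 1 of 2 for this gene, holds it 66 bases before and at base 17 after. The windows of Klf1 and Cebpa hold none of the 3 motifs, and neither do those of Slc30a10 and Tac2, among the highest genes. Only these exact letters were searched. Other spellings that the factors may bind were not, so a window without a match may still hold a site. The window of Aknad1, also among the highest, holds GAGGAA and CCACACCC but no AGATAA. That of Scd3, among the lowest, holds 2 AGATAA and 1 GAGGAA. Promoters were available for 4 of the 10 highest genes and for 7 of the 10 lowest. For the highest AGATAA was found in 1 of 4 promoters and GAGGAA in 1, and for the lowest in 1 and 5 of 8. These 8 include 2 windows of F13a1, each with GAGGAA. As a background, AGATAA was found in 8.98% of the promoters of genes at least 2-fold higher in MEP and in 7.95% of those at least 2-fold lower, against 6.96% of the 13750 promoters of all genes tested and 11.2% of all 32851 promoters of the table. GAGGAA was found in 23.4% on the higher side and in 30.5% on the lower side, against 26.8% of genes tested and 28.3% of all promoters. CCACACCC was found in 4.02% and 4.26%, against 3.9% and 3.56%. These shares describe letters in a window of 300 bases and not binding.

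Stem and early progenitor regulators were lower in MEP. Of 24 tested, 21 were called lower and 2 higher (median log2 -2.34), and all 20 surface proteins of these cells were called lower (median -2.97). Gata2 had 1206, 881.3 and 1556 rescaled counts in MEP, against 8105, 7193 and 8512 in SMP (log2 -2.74, SE 0.115, adjusted p = 2.23e-05), the reverse of Gata1. Hlf, a factor of stem cells, had 872.9, 321.4 and 1325 in MEP, against 11910, 9596 and 10750 in SMP (log2 -3.90). Meis1 and Hoxa9, partners in progenitor growth, were lower by -3.66 and -1.98, Hmga2 by -3.55, Mycn by -3.30, Erg by -2.57, Fli1 by -2.90 and Runx1 by -1.53. The 2 exceptions were Bcl11b, a T cell factor, at 3.29, and Mllt3 at 1.39. On the surface, Flt3, the receptor of lymphoid-primed progenitors, had 2777, 1206 and 4299 in MEP, against 21050, 21450 and 22920 in SMP. Angpt1, which encodes angiopoietin-1, was lower by -3.80, Cd27 by -3.79, Emcn by -4.13 and Procr by -3.06. The same order of the 3 mice recurred in MEP: at Hlf, Meis1, Flt3, Cd27 and Angpt1 mouse 2 was lowest and mouse 3 highest. With mouse 3 left out the medians were -2.55 for the regulators and -3.54 for the surface genes, of which 15 of 20 were then called, Cd34 among those lost (log2 -6.82, adjusted p = 0.0653).

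The regulators and products of granulocytes and monocytes were lower in MEP. Spi1, which encodes PU.1 (chr2:91082390-91115756), had 321.1, 213.8 and 623.9 rescaled counts in MEP, against 4105, 3451 and 4207 in SMP (11.1-fold lower, log2 -3.48, SE 0.287, adjusted p = 0.00125). Cebpa (chr7:35119293-35121928) had 18.58, 25.86 and 44 in MEP, against 2075, 1229 and 1676 in SMP (56.6-fold lower, log2 -5.82, SE 0.324, adjusted p = 3.2e-05). Irf8, a factor of monocytes and dendritic cells, was lower by -3.94 and Klf4 by -4.63. Of 15 myeloid factors 9 were called lower and 2 higher, Maf at 1.12 and Cebpd at 1.59, and the median was -1.98. Primary granule genes, made at the promyelocyte stage, were called lower at 17 of 18 (median -2.90). Mpo, myeloperoxidase, alone had 5072, 2435 and 5706 in MEP, against 140300, 83990 and 105800 in SMP (26.1-fold lower, log2 -4.70, SE 0.208), Ctsg was lower by -4.82 and Prtn3 by -4.03. Elane, neutrophil elastase, had 520.2, 443.5 and 236.8 in MEP, against 4175, 1096 and 1347 in SMP, with mouse 1 far above the others. Monocyte and dendritic cell genes were called lower at 14 of 16 (median -2.75), Csf1r among them. Csf1r, the receptor of macrophage colony-stimulating factor, had 33.23, 41.64 and 81.97 in MEP, against 3544, 2394 and 3770 in SMP.

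Genes of mature neutrophils were mostly not called. Of 14 tested, 4 were called lower and none higher by limma, with a median of -0.07. Of all genes tested, 34.9% were called lower and 36.1% higher. The 4 were Csf3r at -5.00, Itgam at -3.28, Mmp8 at -1.71 and Cxcr2 at -0.98, of which Csf3r and Itgam are also used by precursors. S100a8, S100a9, Ltf, Camp and Ngp, which fill the granules and cytosol of finished neutrophils, summed to 962.6, 1386 and 1105 in MEP, against 1026, 1423 and 726.3 in SMP. The sums overlapped between the populations.

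Megakaryocyte and platelet genes were lower in the population that carries megakaryocytes in its name. Of 24 tested, 23 were called lower and 1, Gp9, higher at 0.61 (median -2.96). Gp9 was not called with upper quartile rescaling or with the deposited values as they stand. Itga2b, the alpha chain of the platelet integrin also known as CD41, had 459.2, 153.5 and 438.9 rescaled counts in MEP, against 4570, 3936 and 4802 in SMP (log2 -3.81, SE 0.343, adjusted p = 0.00234). Pf4, platelet factor 4, had 110.2, 57.44 and 119.9 in MEP, against 784.6, 942.6 and 1029 in SMP. Selp, P-selectin, fell by 4.81 on the log2 scale, Plek by 4.19, Treml1 by 4.15 and Vwf by 1.59. Every one of these 6 genes had separate groups, with the MEP library of mouse 2 lowest.

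**Figure D2:**
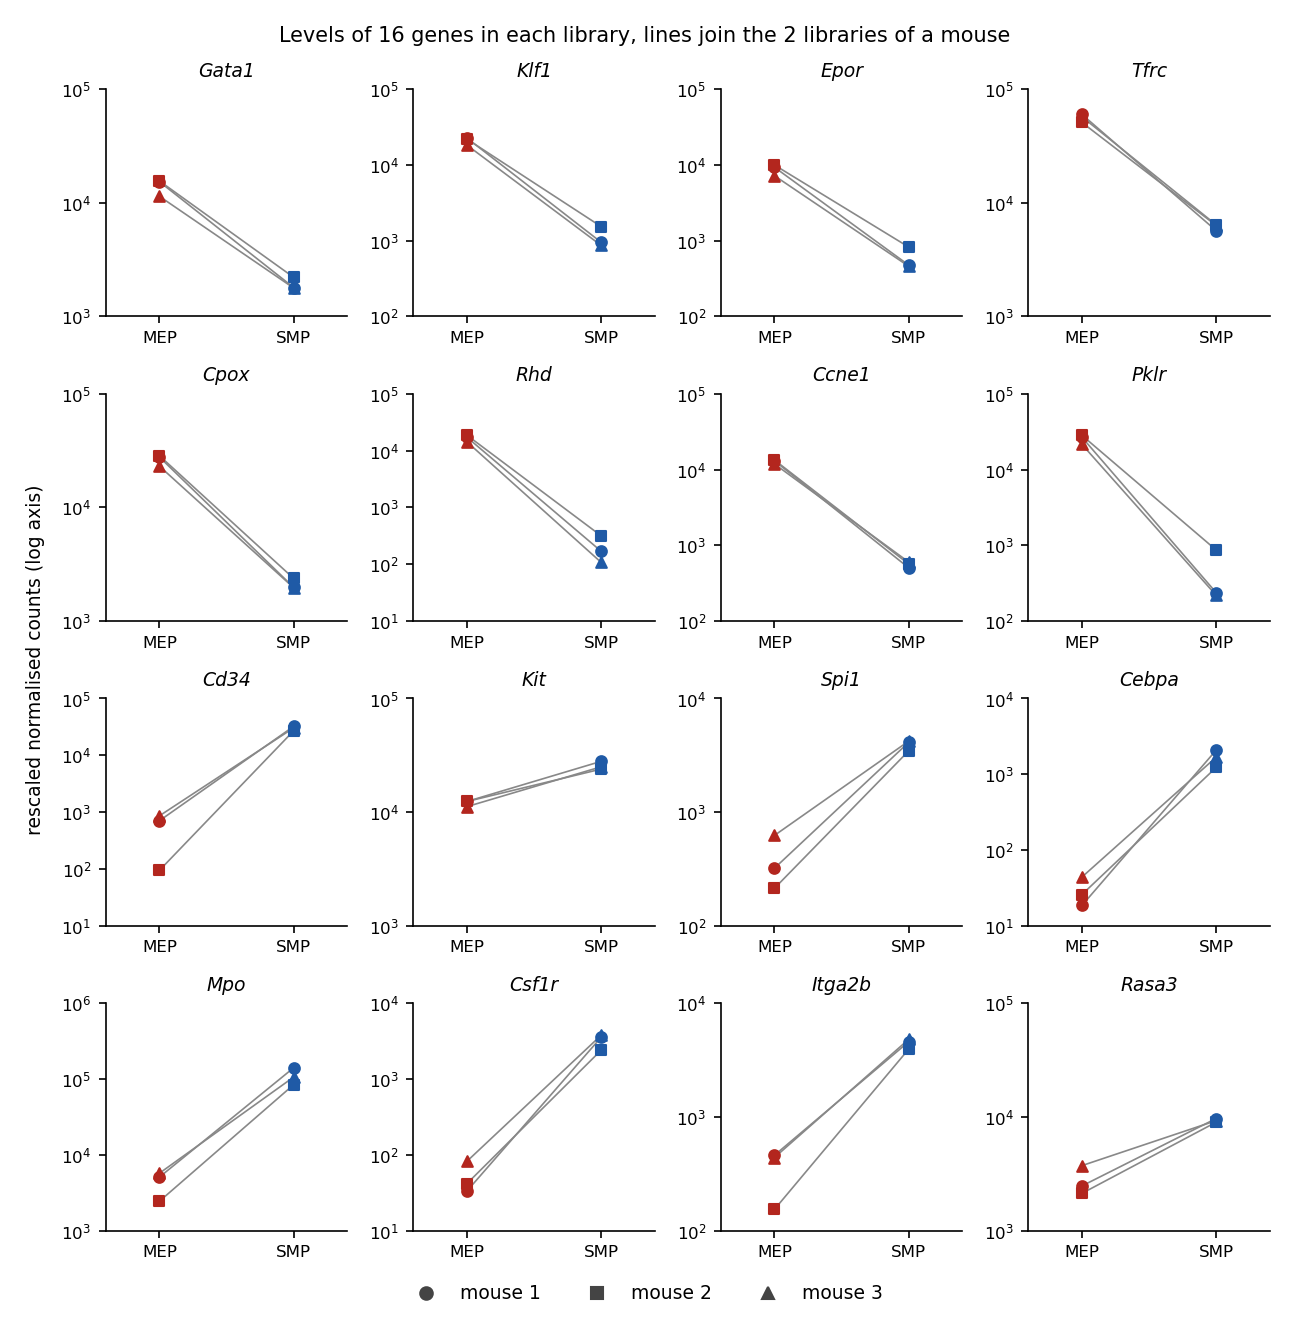
Levels of 16 genes (rescaled normalised counts, log axes with their own range) in the 3 MEP and the 3 SMP libraries, with a symbol for each mouse and a line joining its libraries. The lines fall from MEP to SMP for Gata1, Klf1, Epor, Tfrc, Cpox, Rhd, Ccne1 and Pklr and climb for Cd34, Kit, Spi1, Cebpa, Mpo, Csf1r, Itga2b and Rasa3, and MEP of mouse 2 lies lowest at Cd34 and Itga2b.

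The machinery of the red cell was already high in MEP. All 15 heme synthesis and transport genes were called higher (median log2 2.95), with small errors. Cpox, an enzyme late in the pathway, had 27720, 28490 and 23050 rescaled counts in MEP, against 1982, 2376 and 1969 in SMP (log2 3.65, SE 0.069, adjusted p = 1.95e-06). Alas2, the erythroid enzyme that starts the pathway, had 3168, 3278 and 2925, against 620.4, 1019 and 765.4, a smaller rise (1.99, SE 0.135) than those of Cpox, Fech (3.33) and Uros (3.33), although the differences between these genes were not tested. Alas1, its counterpart in other tissues, fell by 0.60. Membrane and surface proteins of red cells showed the highest list median, 4.06, with 26 of 28 called higher and 2 lower. Rhd, of the Rh blood group, had 17180, 18640 and 14250 in MEP, against 169.6, 317 and 108.2 in SMP (log2 6.52, SE 0.263, adjusted p = 0.000222). Add2, of the skeleton under the membrane, reached 6.42, Sptb, the beta chain of spectrin, 5.85 and Ank1, ankyrin, 5.66. Cldn13, a claudin of mouse erythroid cells, had 10420, 10090 and 8242, against 56.06, 154.6 and 43.26. The 2 lower members were Slc2a1, the glucose transporter GLUT1, at -2.79 and Bcam at -2.75.

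Globin, which later makes up most of a red cell's protein, was less far apart. Adult globin transcripts were 0.331, 0.315 and 0.303% of the MEP libraries, against 0.071, 0.104 and 0.087% of the SMP libraries. Hba-a1 had 81940, 78760 and 67550 rescaled counts in MEP, against 11410, 17570 and 14770 in SMP (5.28-fold, log2 2.40, SE 0.170, adjusted p = 0.000858), and Hbb-bs rose by 2.17. Hba-a1 and Hba-a2, like Hbb-bs and Hbb-bt, are nearly identical copies between which reads are shared out by estimate, so the values of each copy are uncertain. Hba-x, an embryonic alpha-like chain, had 37.35, 25.79 and 23.24 in MEP and is listed at 0 in all 3 SMP libraries. In the older WT mice the globin list had a median difference of -0.08 at 58 days and 0.53 at 32 days, against 2.58, 1.88 and 2.05 in the young mice, and Hba-a2 was no longer called when they were added (adjusted p = 0.0692).

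Iron genes moved with heme. Of 15 tested, 13 were called higher and 2 lower (median 1.38), and 8 and 1 with the deposited values as they stand. Tfrc, the transferrin receptor that brings iron in, had 59770, 50780 and 56970 rescaled counts in MEP, against 5684, 6314 and 6397 in SMP (9.10-fold, log2 3.19, SE 0.080, adjusted p = 3.58e-06). Steap3, which reduces the iron, and Slc11a2, which carries it out of the endosome, rose by 3.34 and 2.81. Slc40a1, ferroportin, the only known iron exporter of mammals, rose by 4.39, with 8041, 8549 and 6082 in MEP, against 298.3, 583.7 and 260.7 in SMP. The lower members were Ncoa4, which delivers ferritin for breakdown, at -1.03 and Fbxl5, an iron sensor, at -0.49. Of 24 enzymes and carriers of early red cells 22 were called higher (median 3.68). Car1 and Car2, carbonic anhydrases, rose by 3.94 and 3.71, Car2 to 125200, 127700 and 97210 in MEP, against 8833, 9351 and 8367 in SMP. Sphk1, sphingosine kinase, rose by 6.51, Aldh1a7 by 6.53 and the metallothionein Mt2 by 6.43, and at these 3 the SMP library of mouse 2 was the highest of the SMP libraries.

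Most growth factor receptors were lower in MEP, and that of erythropoietin was higher. Of 32 cytokine receptors 25 were called lower and 3 higher (median -1.38). Epor (chr9) had 9292, 9937 and 7179 rescaled counts in MEP, against 475.7, 823.7 and 459.4 in SMP (15.4-fold, log2 3.95, SE 0.139, adjusted p = 2.31e-05). The other 2 higher receptors were Il1rl1, the receptor of interleukin-33, at 2.04 and Ifngr1 at 0.30. With upper quartile rescaling or the deposited values as they stand, only 2 of the 32 were called higher. Csf3r, the receptor of granulocyte colony-stimulating factor, had 244, 85.65 and 233.6, against 6706, 4359 and 5599, and Csf2rb, the shared chain of the receptors for interleukin-3, interleukin-5 and GM-CSF, fell by 4.17, Il6ra by 4.70 and Il3ra by 2.39.

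Most genes listed for erythropoietin and STAT5 signalling were lower, and the activity of the receptor was not measured. Of 18 genes of erythropoietin and STAT5 signalling 4 were called higher and 12 lower (median -0.80). Besides Epor these were Erfe, the hormone erythroferrone, with 216.5, 143.6 and 193.3 rescaled counts in MEP, against 42.05, 36.07 and 36.07 in SMP, Gab1 at 1.63 and Jak2 at 0.67. Cish, a target and inhibitor of STAT5, had 300.7, 195.6 and 368.8 in MEP, against 786.7, 844 and 765.7 in SMP (log2 -1.51, SE 0.218, adjusted p = 0.00119). Socs1 fell by 2.2, Socs2 by 1.60, Socs3 by 1.18, the kinase gene Pim1 by 1.21 and Lyn by 1.97. Stat5a had 6851, 7330 and 5856 in MEP, against 6153, 5548 and 5846 in SMP, and was not called (adjusted p = 0.0886).

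Adhesion molecules were lower at 23 of 29 and higher at 4 (median -2.19). Itgam, Itgb3 and Itgal, integrin chains of leukocytes and platelets, fell by 3.28, 3.13 and 3.01, and Ptprc, CD45, by 2.32. Cd82, a tetraspanin, went the other way, with 14690, 14960 and 12010 rescaled counts in MEP, against 1315, 1317 and 1328 in SMP (10.5-fold, log2 3.39, SE 0.081, adjusted p = 2.27e-06). Itga4, whose product holds progenitors to VCAM1, stood at -0.06 and was not called, and Cd44 was lower by only -0.33.

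Rasa3, whose product switches off Ras and Rap1 and which is the gene mutated in scat mice, was lower in MEP. It had 2469, 2124 and 3726 rescaled counts in MEP, against 9672, 8975 and 9261 in SMP (3.45-fold lower, log2 -1.79, SE 0.178, adjusted p = 0.00159), and the groups did not overlap. Among 29 Ras and Rap regulators 16 were called lower and 8 higher (median -0.41), against 34.9% and 36.1% of all genes tested. With the deposited values as they stand 11 were called lower and 2 higher. The GTPase-activating Rasal3 fell by 2.19, Rasal1 by 2.02 and Rasa4 by 2.54, and the exchange factors Rasgrp2 and Rasgrp3 by 2.18 and 2.06, while Rasgrp1 rose by 1.54. Rap1gap, an inhibitor of Rap1, was the highest of the list, with 5283, 7118 and 4578 in MEP, against 69.59, 185.5 and 65.95 in SMP (58-fold, log2 5.86, SE 0.211, adjusted p = 2.01e-05). The GTPases themselves moved less: Hras rose by 1.64, Rras fell by 1.08 and Rap1b by 0.91, and Nras (-0.03) and Rap1a (-0.01) were not called. Leaving out mouse 1 or 2 ended the calls of Rasgrp2 and Rasa4. The log2 fold change of Rasgrp2 was then -1.89 and -1.84 (adjusted p = 0.121 and 0.305), and that of Rasa4 was -2.48 and -2.18 (adjusted p = 0.0522 and 0.0538). Both genes were lower in MEP in all 3 mice.

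Feedback genes of the ERK pathway and immediate early genes were called lower at 17 of 23 and higher at 3 (median -1.49). Dusp6, a phosphatase that ERK induces, had 353.7, 315.9 and 1113 rescaled counts in MEP, against 2104, 1982 and 2098 in SMP (log2 -2.04, SE 0.465, adjusted p = 0.0324), with mouse 3 again nearest to SMP. Fosl2 fell by 3.02, Ier3 by 2.65, Fos by 2.55 and Spry1 by 1.77. Egr1 was not called (-0.87, adjusted p = 0.0529). Myc itself was lower by only -0.30, at 12770, 12370 and 11090 in MEP, against 15890, 13940 and 14850 in SMP.

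Genes of the cell cycle were higher in MEP. All 25 genes of G1/S and DNA replication were called higher (median 1.13), and 25 of 26 of G2/M and mitosis (median 0.85), Kif23 being the exception at -0.18. With the deposited values as they stand 11 of 25 and 7 of 26 were called higher, with medians of 0.88 and 0.60. Ccne1, cyclin E1, stood apart from the rest of the list with 13050, 13350 and 11860 rescaled counts in MEP, against 506.1, 567.9 and 602.7 in SMP (22.8-fold, log2 4.51, SE 0.088, adjusted p = 1.95e-06). Rrm2, which makes deoxynucleotides, rose by 2.62, Cdc6, which loads the replication helicase, by 2.18 and Mcm2, a part of it, by 1.16. Ccna2, cyclin A2, had 25700, 22130 and 21100, against 8614, 8373 and 8402 (1.44), and Birc5, survivin, rose by 1.67. The inhibitors were divided, 7 higher and 8 lower of 15, against 36.1% and 34.9% of all genes tested. Gadd45a, Gadd45g and Rb1 rose by 1.92, 2.13 and 1.74, while Cdkn1a, p21, fell by 1.19, Cdkn1c, p57, by 1.06 and Ccng2 by 2.67. The call of Ccng2 was lost without mouse 1 or 2, at log2 -2.40 and -2.37 (adjusted p = 0.0676 and 0.211).

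Growth genes shifted together by small steps. Of 30 genes of MYC and ribosome biogenesis 28 were called higher (median 0.71), led by Odc1, the enzyme of polyamine synthesis, at 2.04. Of 76 cytosolic ribosomal proteins 70 were called higher and none lower by limma, but with a median of 0.48, and only 2 passed 2-fold. Of 74 nuclear genes of oxidative phosphorylation 71 were called higher (median 0.94), as were 12 of 13 genes encoded in the mitochondrion (median 0.57), such as mt-Nd1 with 137500, 154200 and 142400 rescaled counts in MEP, against 74140, 73690 and 58360 in SMP. Shifts of this size are near that of the scale. With the deposited values as they stand, 2 of 76 ribosomal protein genes, 0 of 13 mitochondrial genes, 17 of 74 oxidative phosphorylation genes and 3 of 30 biogenesis genes were called higher by limma, with medians of 0.23, 0.32, 0.69 and 0.46. With upper quartile rescaling the counts were 57, 9, 70 and 27.

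Glycolysis genes were divided, and genes for forms of the same enzyme went in opposite directions. Of 29 genes of glycolysis and the pentose phosphate path 11 were called higher and 11 lower, a split near that of all genes tested (36.1% and 34.9%). The median changed sign with the scale (0.10, and -0.12 with upper quartile rescaling). Pklr, the pyruvate kinase of red cells and liver, had 26650, 28210 and 21460 rescaled counts in MEP, against 238.1, 868.5 and 219.5 in SMP (70.6-fold, log2 6.14, SE 0.464, adjusted p = 0.0022). Pkm, the pyruvate kinase of most other tissues, had 2555, 1985 and 5618 in MEP, against 30750, 27920 and 28150 in SMP (log2 -3.24, SE 0.381, adjusted p = 0.00652). Without mouse 2 the log2 fold change of Pkm was -2.96 (adjusted p = 0.123). The hexokinases divided as well: Hk1 rose by 1.05, while Hk2 fell by 2.65 and Hk3 by 5.82. Slc16a1, a lactate transporter, rose by 2.26 and Pfkm by 2.10. Gapdh, with 23490, 23210 and 19620 in MEP, against 19170, 20300 and 19900 in SMP, overlapped between the groups and was not called.

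One-carbon and nucleotide synthesis leaned upward, with 18 of 23 called higher and 3 lower (median 0.67), and 2 higher with the deposited values as they stand. Mthfd1, a cytosolic folate enzyme, rose by 2.29 and its mitochondrial relative Mthfd2 by 1.58. Shmt1 went the other way at -1.66, with 1254, 1121 and 1549 rescaled counts in MEP, against 4271, 4174 and 3825 in SMP.

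Among chromatin genes 13 were called higher and 11 lower of 26, against 36.1% and 34.9% of all genes tested. With upper quartile rescaling 8 were called higher and 13 lower, and the median again changed sign (0.16, and -0.06 with upper quartile rescaling). The enzymes that set new DNA methylation and those that remove it were on the lower side: Dnmt3b fell by 2.52, Dnmt3a by 1.5, Tet1 by 2.36 and Tet2 by 1.24. Dnmt3b had 1418, 983.8 and 1544 rescaled counts in MEP, against 6815, 7392 and 8099 in SMP. Uhrf1 and Hmgb3 were higher at 0.98 and 1.79, and Dnmt1, which copies methylation at replication, at 0.26. Survival genes were divided, with 10 higher and 9 lower of 21, against the same shares of all genes (median 0.20, and -0.02 with upper quartile rescaling). Bcl2, which protects cells from death, had 429.5, 257.5 and 690.8 in MEP, against 5507, 4970 and 5448 in SMP (log2 -3.64, SE 0.291, adjusted p = 0.0015). Bcl2l11, BIM, rose by 1.79, while Pmaip1, NOXA, fell by 4.0. Bcl2l1, the survival gene of later erythroblasts, was lower by -0.32.

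Immune response genes were lower. Of 20 interferon response genes 16 were called lower and 1, Usp18, higher at 1.8 (median -1.02). Oas2 fell by 3.37, Oasl2 by 3.33 and Mx1 by 3.21. Of 15 genes of MHC class I and II 11 were called lower and none higher by limma (median -0.94), among them B2m at -0.95 and H2-K1 at -1.13. Members of the H2 family resemble each other, and reads between them are shared out by estimate.

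Markers of mast cells and basophils, of stroma and endothelium and of T and NK cells were read as a list each. Rescaled together with whole marrow of young WT mice, some were higher in SMP than there. The third whole marrow library has another mouse identifier than the third SMP library. Postn had 2312, 2242 and 2468 in SMP, against 131.5, 670.9 and 429.6 in whole marrow, and Runx2 and Cpa3 were higher as well. Col1a1, Mcpt8, Hdc and Gzma went the other way, Col1a1 with 300.5, 85.48 and 489.6 in SMP, against 7731, 110000 and 33990. Which cells these genes come from was not tested. Mast cell and basophil genes were lower in MEP: Cpa3 had 152.3, 58.77 and 160.1 rescaled counts in MEP, against 1927, 1740 and 1485 in SMP, and 7 of 13 genes of mast cells, basophils and eosinophils were called lower and 1 higher, while the eosinophil genes Epx and Prg2 were not called. Stroma and endothelium genes were lower at 10 of 13 (median -2.44), led by Postn at -4.72, Pdgfrb at -4.16 and Runx2 at -4.11, and the 4 defining markers Col1a1, Cxcl12, Cdh5 and Pecam1 summed to 850.7, 430 and 1606 in MEP, against 5529, 4622 and 5424 in SMP, and Pecam1 is also made by early progenitors. Col1a1 had 18.89, 20.13 and 32.09 in MEP, against 288.8, 82.54 and 470.8 in SMP. Both older WT mice had more of it in MEP (log2 differences of 1.9 and 0.81), and with them added the fold change was -1.40 and not called (adjusted p = 0.226). The T and NK cell markers Cd3e, Cd3d, Klrd1 and Gzma summed to 156.2, 71.69 and 154.7 in MEP, against 38.4, 43.74 and 49.16 in SMP. Of 13 genes of these cells 5 were called higher and 3 lower, against 36.1% and 34.9% of all genes tested. Their part in other results was not tested.

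B cell genes set the MEP libraries apart from each other. Of 14 tested, 2 were called higher, Igll1 and Blk, and 3 lower, Bank1, Cd22 and Cd72, with a median of 1.52 and 9 not called. Among all genes tested the shares were 36.1% higher and 34.9% lower. With the deposited values as they stand 7 were called higher and 3 lower, and without mouse 3 the counts were 6 and 4, with a median of 0.92. Igll1, which encodes a piece of the pre-B cell receptor, had 464.2, 952.9 and 4619 rescaled counts in MEP, against 16.91, 166.9 and 70.05 in SMP (log2 4.41, SE 0.826, adjusted p = 0.018), and lost its call without mouse 1 (log2 4.26, adjusted p = 0.0836). The call of Blk was lost under 9 of 14 alternatives. The median of the list was 1.31, 0.14 and 2.72 in mouse 1, 2 and 3. Immunoglobulin variable segments were higher too: of 69 tested, 39 were called higher, each at least 2-fold, and 2 lower (median 3.24). The 29 kappa segments summed to 1421.5, 2165.5 and 3098.2 in MEP, against 22.7, 43.1 and 67.0 in SMP, with 22 called higher and 0 lower by limma, whereas the 38 heavy chain segments summed to 1668.6, 2209.0 and 4111.1, against 1878.7, 2573.1 and 1857.0, and overlapped. Igkv15-103, Igkv14-126 and Ighv7-1, among the 10 highest genes of all, had 255.6, 232.5 and 529.3, then 138.9, 146.3 and 684.5, then 256.1, 251.1 and 497 in MEP, against at most 1.15 in any SMP library. Variable segments are a family of similar genes, so the value of any 1 of them is uncertain. What part B cell RNA has in the MEP libraries' other values was not tested.

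**Figure D3:**
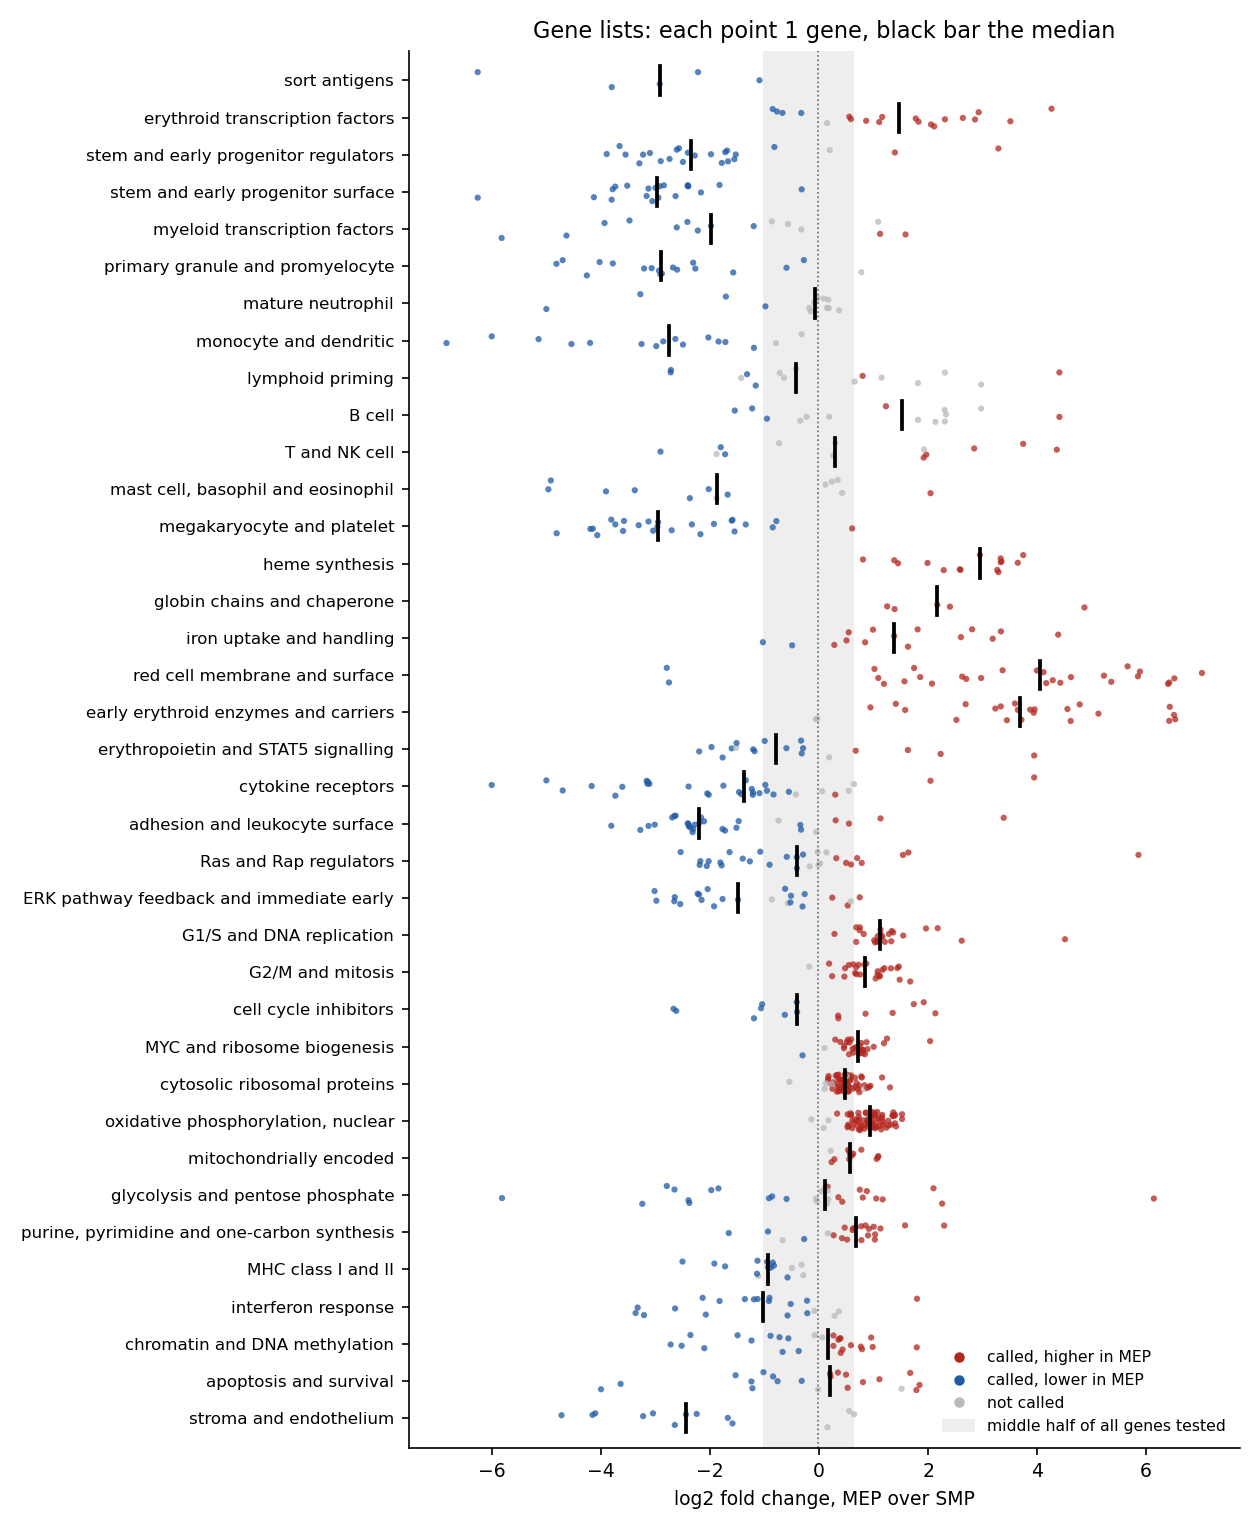
Log2 fold changes of MEP over SMP for the tested genes of 37 lists, 1 point a gene, red where called higher in MEP, blue where called lower and grey where not called, with a black bar at the list's median. The shaded band holds the central 50% of all genes tested, and the medians of the red cell membrane list (4.06) and of the megakaryocyte list (-2.96) lie on opposite sides of it.

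The mice differed in the size of the difference. For genes called at least 2-fold lower, the median log2 difference was -2.26 in mouse 1, -2.67 in mouse 2 and -1.64 in mouse 3, and for those at least 2-fold higher it was 1.63, 1.58 and 1.45. The size of the lower side thus varied more between mice than that of the higher side. The 2 older WT mice, which had no part in these calls, gave the same sign for 97.9% of the 5183 genes at 58 days and for 98.1% at 32 days. Their medians on the lower side were -2.21 and -1.24, and on the higher side 1.38 and 1.17. The red cell membrane list had a median of 2.09 in the mouse of 58 days, against 3.67 to 4.36 in the young mice, and the primary granule list -3.84, against -3.26 to -2.24. With 1 or 2 mice at an age, age and animal cannot be told apart.

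**Figure D4:**
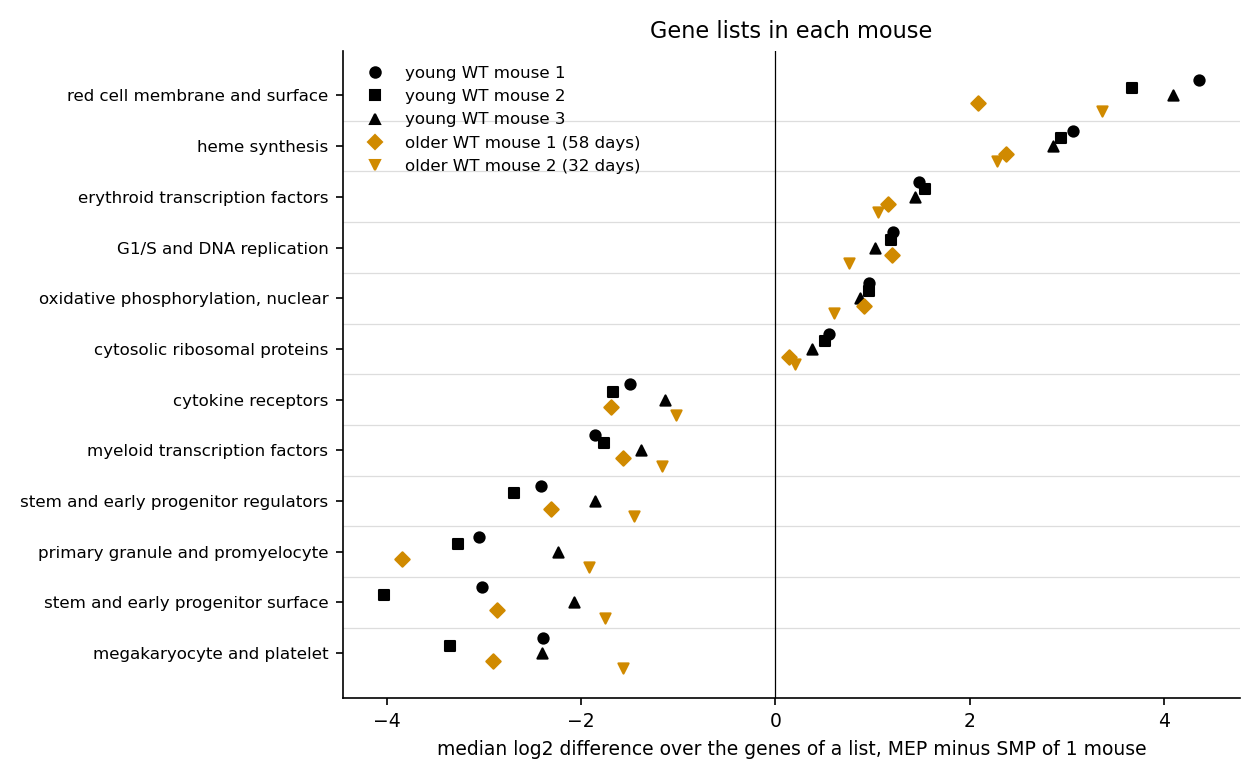
Median log2 difference of MEP minus SMP over the genes of 12 lists, in each of the 3 young WT mice (black) and the 2 older WT mice (orange). All points of a list lie on 1 side of 0, and the older mouse 2 lies nearest to 0 in each of the 6 lists on the lower side.

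The difference between the populations was also set beside that in anemic crisis, with the values rescaled over all 12 libraries. Crisis and WT differed in the MEP to SMP difference at 71 of 15004 genes tested (0.473%), 24 with a higher and 47 with a lower log2 difference in crisis. Of the 71, 67 were also called between MEP and SMP in WT mice, against 71.0% of all genes tested there. Both tests used the same WT libraries, so the 2 sets of calls are not independent. At an unadjusted p under 0.05 there were 2282. Mt2, a metallothionein, differed most, with a log2 difference of 2.64, 2.55 and 1.45 in crisis mice, against 7.24, 5.12 and 6.84 in WT mice (difference -4.19, SE 0.581, adjusted p = 0.0441). Its level in SMP was 800.5, 2149 and 6561 in crisis, against 8.32, 39.9 and 6.35 in WT, and its level in MEP was 4982, 12610 and 17910 in crisis, against 1407, 1419 and 841.5 in WT. Add2 of the red cell skeleton had 1716, 2129 and 4033 in SMP in crisis, against 141.8, 285.3 and 119.6 in WT SMP, and 17450, 22510 and 19080 in MEP in crisis, against 15100, 15820 and 12050 in WT MEP. Prkaa2, a catalytic subunit of the energy sensor AMPK, changed its sign, with log2 differences of 1.49, 2.04 and 2.08 in crisis mice, against -2.08, -1.65 and -1.0 in WT mice. Ptger3, a prostaglandin E2 receptor, also changed its sign, at 831.5, 2238 and 1985 in MEP and 738.6, 1084 and 1131 in SMP in crisis, against 343.2, 177.2 and 215.2 in MEP and 980.6, 874.3 and 937.6 in SMP in WT. The number of limma calls moved with single mice. It was 0 without WT mouse 1, without WT mouse 3 or without crisis mouse 2, where 1410, 1975 and 1897 genes had an unadjusted p under 0.05. It was 562 without crisis mouse 1, 34 without crisis mouse 3, and 1 without the block for the mouse. Crisis and WT mice differ in both genotype and disease state, and the scat/scat mice in partial remission, which share the genotype, were not used here.

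**Figure D5:**
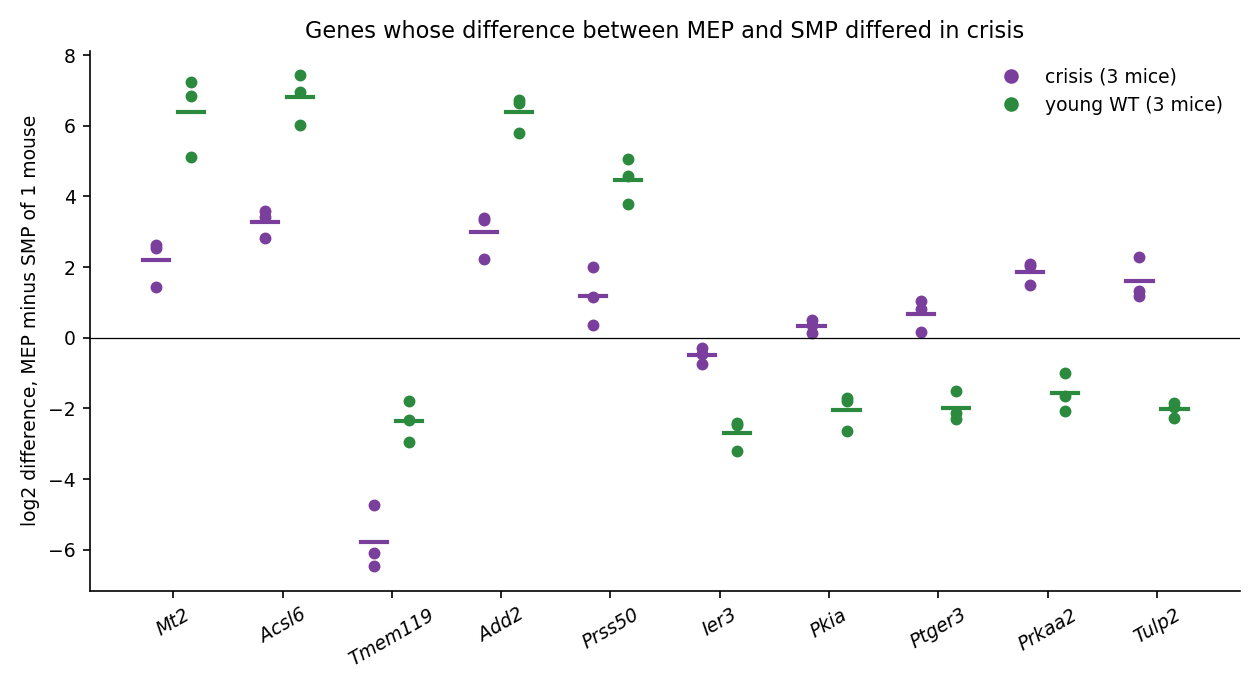
Log2 difference of MEP minus SMP in each of 3 crisis mice (purple) and 3 young WT mice (green), with a bar at the mean, for the 10 genes with the lowest and highest difference between crisis and WT among those called. The mice of the 2 states do not overlap at any of the 10 genes, which were picked by the test on these same mice. Prkaa2, Tulp2, Pkia and Ptger3 lie above 0 in crisis and below it in WT.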

How the data were processed

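RNA of sorted marrow cells was sequenced with the KAPA mRNA HyperPrep kit, per the labels' protocols. Reads were processed with Bowtie2 2.2.0, RSEM and DESeq2 on GRCm38, per the submitters' processing notes, which give no order or further settings; strand was not given in the sources used here. The authors deposited a normalised count (a signal, not whole reads) for 26286 genes and a regularised log2 value for 25287. Symbols and coordinates came from GENCODE M21 and matched 25607 IDs.

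The 6 columns were rescaled by median ratio and tested with limma 3.58.1 (R 4.3.3) on log2(value + 1), for genes with a mean of at least 10, mouse as a block, trended robust variances, two-sided, Benjamini-Hochberg adjusted at 0.05; fold changes are on that scale and understate low genes. The crisis comparison used 12 libraries with the same block. The libraries of a mouse share an identifier in the titles, which for mouse 3 is a code of age and genotype and was taken as 1 animal; their deviations correlated at 0.136, 0.096 and 0.122, against -0.081 to -0.027 for other pairs. Alternatives were other scalings, pseudocounts, filters and blocks, each mouse left out, the older mice added and the deposited log2 values. The members and lists were chosen with earlier results of these data known. Named genes were the 10 highest and 10 lowest calls with a mean of at least 100 in the higher population and 1 direction in all mice, up to 4 called members of each list with the largest changes, the 5 sort antigens, Rasa3, Gata1, Klf1, Spi1, Cebpa and Epor, and 5 genes a direction from the crisis comparison. Genes named beyond these were chosen after their values were seen. Counts were made with Python 3.11.15, pandas 2.3.3, numpy 2.4.6 and matplotlib 3.10.9. Some genes of the lists are not reported here by name.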

Additional observations from a re-analysis of the deposited data

Results flagged for a closer look

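The difference between MEP and SMP differed between crisis and WT mice, by the interaction term of limma, at the 10 genes named here, the 5 highest and 5 lowest of those called. Values are the crisis minus WT log2 difference. Higher in crisis were Tulp2 at 3.63 (SE 0.543, adjusted p = 0.0441), Prkaa2 at 3.45 (SE 0.397, adjusted p = 0.0274), Ptger3 at 2.65, Pkia at 2.39 and Ier3 at 2.2. Lower in crisis were Mt2 at -4.19, Acsl6, an acyl-CoA synthetase, at -3.53, Tmem119 at -3.41, Add2 at -3.39 and Prss50 at -3.3. At all 10 the crisis mice and the WT mice did not overlap. The 10 were picked by this test on the same mice, so that is a description. Mt2 resembles Mt1, and reads may be shared between them.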

How the results depend on the processing

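The count of genes called between MEP and SMP, 10619, was 4768 with the deposited values as they stand, of which 1189 were higher in MEP. With a mouse left out it ranged from 8206 to 10499, the higher genes from 4379 to 5396 and the lower from 3827 to 5103. Without the replicate block it was 10676, with 5409 higher and 5267 lower, and with the mouse as a random replicate block 11081. None of the 158 named genes changed sign under the alternatives run. The count of genes whose difference differed between crisis and WT, 71, was 311 with the deposited values as they stand, 36 with upper quartile rescaling, 47 with a mean of at least 100 and 1 with no replicate block, and ranged from 0 to 562 with a mouse left out. Lost calls include Cd34 and Angpt1 without mouse 3, at log2 -6.82 and -4.24 (adjusted p = 0.0653 and 0.0599), and F13a1 without mouse 2, at -6.52 (adjusted p = 0.077). The cause was not tested.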
